A study of Mus musculus with 24 samples.

Results

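A set of 10 genes of the fast muscle fibre was followed through wild type, R6/2 and Hsf1-/- quadriceps femoris muscle. They were chosen by symbol: the troponins Tnnt3, Tnni2 and Tnnc2, the myosin light chains Mylpf and Myl1, the myosin binding protein Mybpc2, the Z-disc protein Actn3, and the calcium handling genes Atp2a1, Casq1 and Pvalb. The choice was made with earlier results of these data known. Counts of members called therefore describe the set and are no independent test of it. All 10 were found among the 18669 genes of the table, and all 10 passed the filter on low counts, which 13754 genes passed.

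RNA was sequenced from 24 mice on a CBA x C57BL/6 F1 background, 2 in each of 12 groups of 3 genotypes and 4 treatments, 4 h after treatment. R6/2 mice carry a transgene for the first exon of mutant human huntingtin and are a model of Huntington's disease, and Hsf1-/- mice lack heat shock factor 1, the main transcription factor of the heat shock response. HS mice were warmed to 41.5 °C for 15 min under anaesthesia and their controls were kept at 36.9 °C for 21 min, while other mice received 12 mg/kg of the HSP90 inhibitor HSP990 or its vehicle by mouth. Wild type and R6/2 mice were 12 weeks old, and Hsf1-/- mice were 10 weeks old in the HS experiment and 8 weeks old in the HSP990 experiment.

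Fast fibres of limb muscle contract and relax quickly. In the thin filament, calcium binds troponin C, which relieves the block that troponin I and tropomyosin place on myosin, and most of these proteins have a fast form and a slow or cardiac form made from different genes. The calcium comes from the sarcoplasmic reticulum, where calsequestrin stores it, and is cleared by the SERCA pumps and, in fast fibres, by the soluble buffer parvalbumin.

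Libraries held 22450177 to 46599238 counts, and the members had between 14039 (Casq1) and 1659236 (Atp2a1) counts in a single library. The 10 genes took 10.8% to 12.7% of all counts in wild type mice, 11.1% to 14.3% in Hsf1-/- mice and 5.25% to 7.67% in R6/2 mice. This share is of the library alone and needs no scaling, and the R6/2 mice did not overlap with the others. The 20 most abundant genes of each library, among which 8 of the members rank by their mean share over all libraries, took 14.7% to 21.9% of counts in R6/2 mice and 32.7% or more in the other mice. All 10 skeletal muscle markers were detected in every genotype. Counts of 4 Y-linked genes summed to 0 to 4 in the wild type and R6/2 mice of the HS experiment and to 3916 to 9392 in all other mice, so these 2 genotypes matched within each experiment while Hsf1-/- and wild type mice of the HS experiment did not. Hsf1 itself had 488 to 937 counts in Hsf1-/- mice and 1061 to 2523 in the other mice, without overlap.

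**Figure D1:**
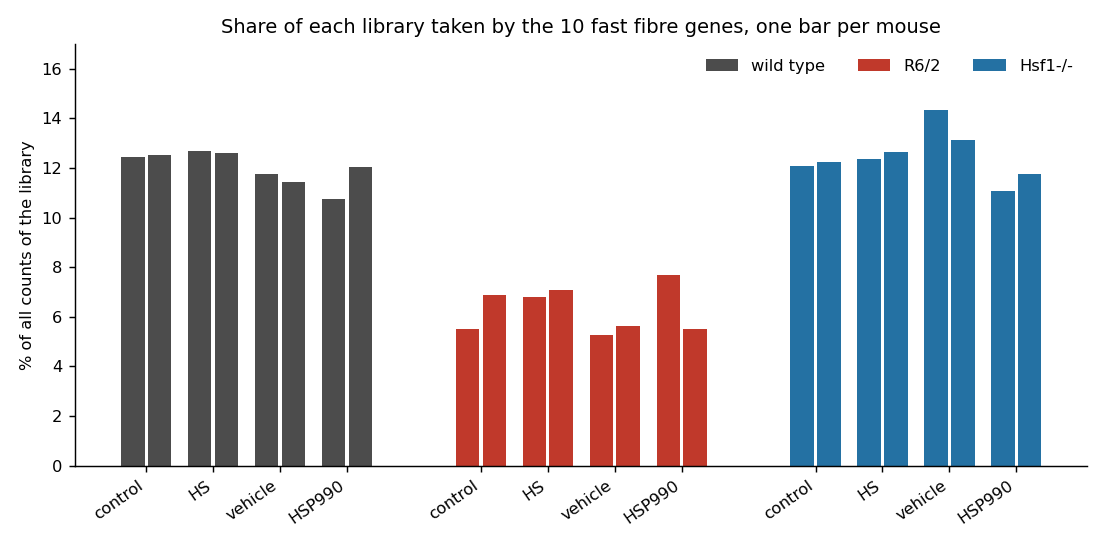
Percent of each library's counts on the 10 fast fibre genes (y axis), with 1 bar per mouse, grouped by genotype (colour) and treatment (x axis). The 8 R6/2 mice lie between 5.25% and 7.67%, below every wild type and Hsf1-/- mouse.

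In R6/2 muscle all 10 genes were lower than in wild type muscle, at 20.8% (Myl1) to 48.9% (Tnnc2) of the wild type level over the 4 treatments. In the fit, 10 of 10 were called lower (edgeR's quasi-likelihood test, Benjamini-Hochberg adjusted p below 0.05 over all genes), where 19.8% of all genes tested were called lower. The median log2 fold change of the 10 genes was -1.78, against 0.03 for all genes tested. For each of the 10 genes, the 8 R6/2 mice lay below all 16 other mice, which held for 3.42% of all genes tested. Levels are given as CPM, counts relative to the library's total after scaling by TMM, a method that sets each library's scale from the bulk of its genes. In a bulk sample fewer fast fibres and less RNA per fibre cannot be told apart.

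Of the troponin subunits, Tnnt3 encodes fast troponin T, which anchors the complex to tropomyosin. Its level was 11396, 15532 and 16582 CPM in wild type mice (lowest, median and highest of 8), 2856, 4154 and 6539 in R6/2 mice and 13617, 15752 and 19039 in Hsf1-/- mice. The R6/2 mice stood apart below the other mice, and the log2 fold change against wild type was -1.69 ± 0.13 (SE, adjusted p = 6e-08). Tnni2, the inhibitory subunit, was at 7742, 8676 and 10254 CPM in wild type, 1846, 2313 and 3669 in R6/2 and 8289, 9125 and 10098 in Hsf1-/- mice. Its wild type and Hsf1-/- ranges overlapped and its R6/2 range did not reach them, with a log2 fold change of -1.75 ± 0.12 (adjusted p = 1.4e-08). Tnnc2, the calcium sensor, was at 8917, 10307 and 12859 CPM in wild type, 3998, 4879 and 6737 in R6/2 and 8340, 8820 and 10788 in Hsf1-/- mice. It fell least of the 10 genes, by 1.03 ± 0.09 on the log2 scale (adjusted p = 2e-07), and the highest R6/2 mouse (control replicate 2) came close to the lowest other mouse (Hsf1-/- HSP990 replicate 2).

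Both light chain genes code for small subunits of the myosin neck. Mylpf, the fast regulatory light chain, was at 8939, 10935 and 12968 CPM in wild type, 2250, 2838 and 4230 in R6/2 and 9499, 10897 and 13747 in Hsf1-/- mice (lowest, median and highest of 8). It fell by 1.82 ± 0.11 on the log2 scale in R6/2 mice (SE, adjusted p = 6.6e-09), to less than the lowest mouse of the other genotypes in all 8 mice. Myl1, the fast essential light chain, was at 2979, 4999 and 7311 CPM in wild type, 639.0, 1093 and 1687 in R6/2 and 4052, 5796 and 7540 in Hsf1-/- mice. It fell by 2.26 ± 0.18 on the log2 scale (adjusted p = 8e-08), more than any other member. Myl1 was also the member with the widest spread among wild type mice, and the 2 WT HSP990 mice were at 2979 and 6825 CPM. Of the 40-base words of its transcripts, 27.5% occur at a second place in the genome (chromosome 12, 102459927 to 102460628, mm9), so its counts are uncertain where reads were shared.

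Mybpc2 encodes fast myosin binding protein C, which lies along the thick filament. It was at 7177, 7959 and 10541 CPM in wild type, 1424, 2248 and 2998 in R6/2 and 7252, 9539 and 10639 in Hsf1-/- mice, and fell by 1.90 ± 0.12 in R6/2 mice (SE, adjusted p = 9.2e-09). Actn3, the fast fibre alpha-actinin that crosslinks thin filaments at the Z-disc, was at 9240, 11207 and 13037 CPM in wild type, 2638, 3424 and 4418 in R6/2 and 9244, 12279 and 15012 in Hsf1-/- mice. It fell by 1.67 ± 0.09, with the smallest adjusted p of the 10 genes (5.5e-09). In both genes the R6/2 mice stayed below the lowest mouse of the other genotypes.

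Among the calcium handling genes, Atp2a1 encodes SERCA1, the calcium pump of fast fibres, and was the most abundant member. It was at 44435, 53524 and 63253 CPM in wild type, 17140, 21377 and 30327 in R6/2 and 37325, 54656 and 61911 in Hsf1-/- mice. It fell by 1.27 ± 0.09 on the log2 scale (SE, adjusted p = 3.8e-08), less than all members but Tnnc2. Casq1, the fast fibre calsequestrin, was at 1472, 1734 and 1939 CPM in wild type, 309.2, 403.5 and 830.6 in R6/2 and 1749, 1880 and 2557 in Hsf1-/- mice. It was the least abundant member and fell by 1.84 ± 0.17 (adjusted p = 3.2e-07). Pvalb, the parvalbumin gene, was at 9960, 12482 and 15817 CPM in wild type, 1797, 3036 and 6308 in R6/2 and 12023, 14117 and 19989 in Hsf1-/- mice. Pvalb fell by 2.07 ± 0.17 (adjusted p = 1e-07), and its 8 R6/2 mice differed most among themselves, with the highest at 3.51 times the lowest.

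**Figure D2:**
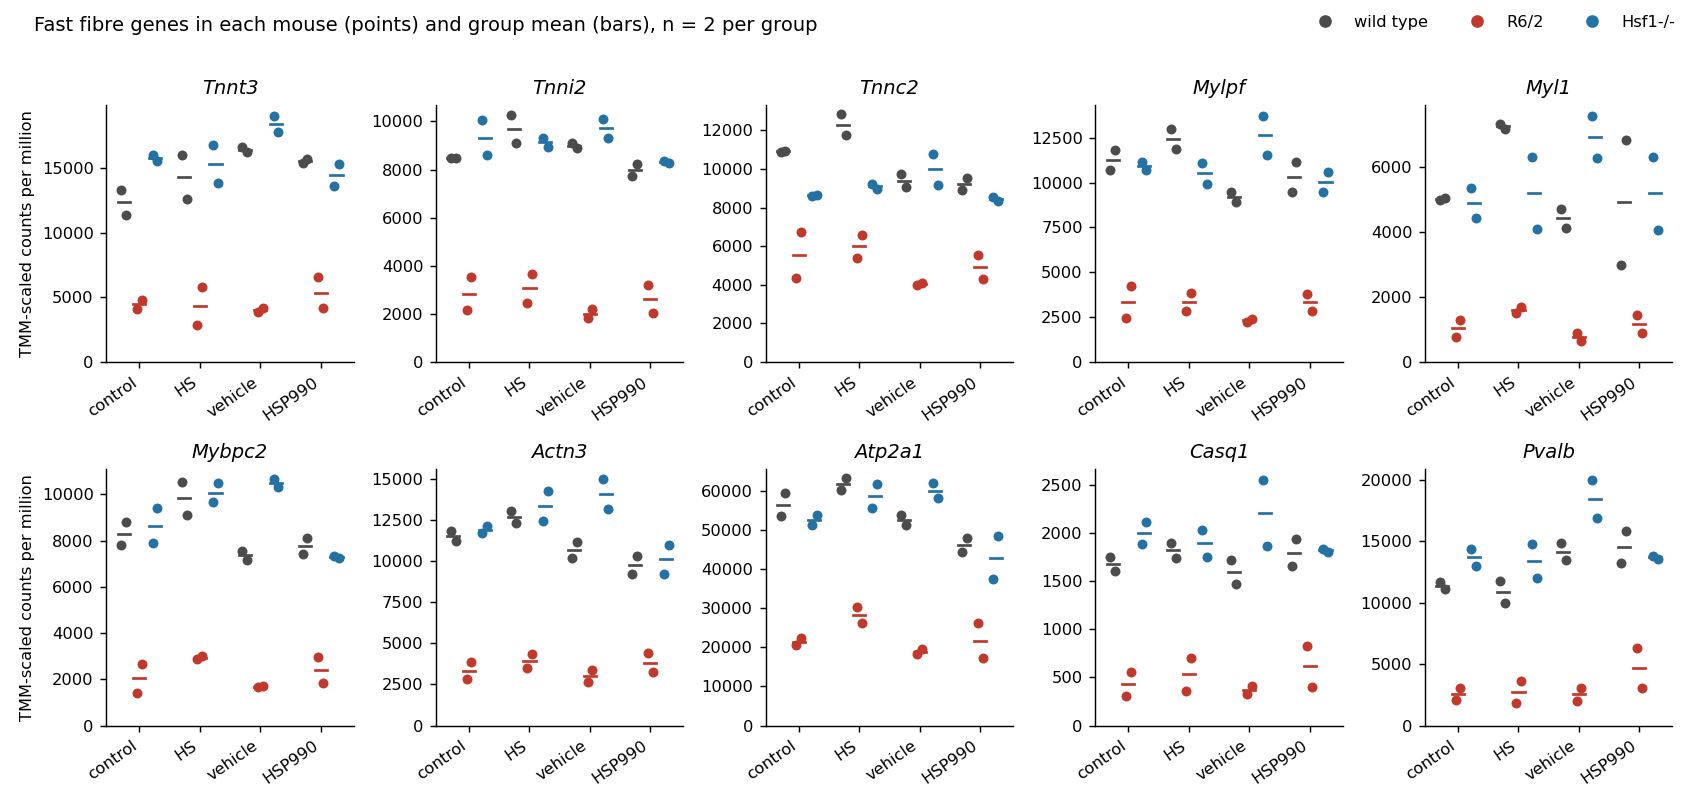
TMM-scaled CPM (y axis) of each fast fibre gene (panels) by treatment (x axis) and genotype (colour), with a point per mouse and a bar at the mean of the 2 mice. In every panel the red R6/2 points lie below all wild type and Hsf1-/- points, with narrow gaps for Tnnc2, where the nearest points are at 6737 and 8340, and for Atp2a1, at 30327 and 37325.

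The R6/2 deficit was called for all 10 genes within each treatment, which are separate sets of mice. The log2 fold changes ran from -2.28 (Myl1) to -0.98 (Tnnc2) in control mice, from -2.18 to -1.04 in HS mice, from -2.53 to -1.21 in vehicle mice and from -2.07 to -0.90 in HSP990 mice, with the same genes at both ends. Called lower among all genes tested were 6.94%, 6.33%, 10.5% and 5.29% in these treatments. The mean of the 2 mice for Pvalb was 2533 ± 692.9 CPM in R6/2 control, 2711 ± 1292 in R6/2 HS, 2542 ± 757.6 in R6/2 vehicle and 4678 ± 2305 in R6/2 HSP990 mice (SD, n = 2), against 10863 ± 1277 to 14508 ± 1852 in the wild type groups. The call in HSP990 mice was lost for Tnnc2, Casq1 and Pvalb when R6/2 HSP990 replicate 2 was left out, with adjusted p = 0.076, 0.11 and 0.082, and in control mice for Tnnc2 and Casq1 without R6/2 control replicate 1, with adjusted p = 0.053 and 0.05. The call of Tnnc2 was also lost in HSP990 mice by library size only (adjusted p = 0.074) and in control mice when only the groups compared were fitted (adjusted p = 0.09). R6/2 mice were also lower than Hsf1-/- mice in 10 of 10 genes, by 0.83 (Tnnc2) to 2.32 (Myl1) on the log2 scale, where 22.1% of all genes were called lower. The R6/2 mice are the same in both comparisons. R6/2 and Hsf1-/- mice also differed in age, and in Y-linked counts in the HS experiment, and neither can be told apart from genotype.

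**Figure D3:**
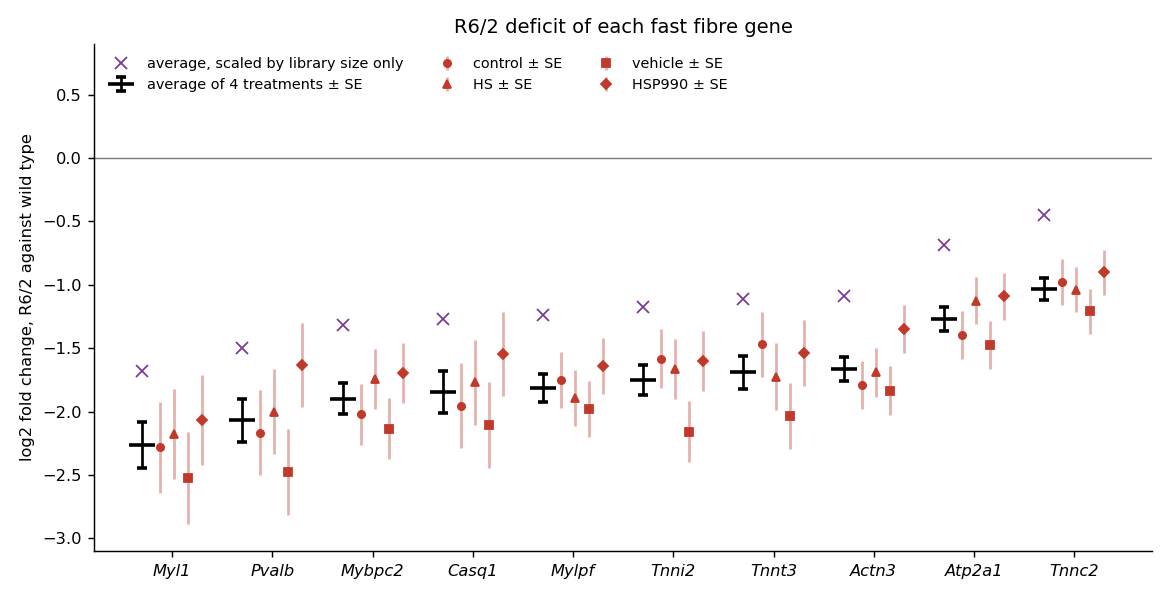
Log2 fold change of R6/2 against wild type (y axis) for each fast fibre gene (x axis, ordered by the average), as the average of 4 treatments with its SE (black bars), within each treatment with its SE (red symbols), and as the average with scaling by library size only (crosses). All values lie below 0, from -2.26 for Myl1 to -1.03 for Tnnc2 in the averages and from -1.68 to -0.45 by library size.

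The size of the deficit depended on the scale. When libraries were scaled by their totals only, the median of all genes tested moved from 0.03 to 0.61, and the 10 genes were at 31.1% (Myl1) to 73.2% (Tnnc2) of wild type, all 10 still called lower. On that scale 3.78% of all genes tested were called lower and 69.1% higher, against 19.8% and 21.1% with TMM. Relative to the median of all genes, the members lay 1.06 to 2.30 lower by library size and 1.06 to 2.29 lower with TMM. By library size, 8 of 10 genes separated the 8 R6/2 mice from the 16 others, where 0.465% of all genes did. Tnnc2 and Atp2a1 were the exceptions.

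The members did not fall to the same extent. Taken within a library, where scaling has no part, the log2 ratio of Myl1 to Tnnc2 counts was -1.58 to -0.48 in wild type mice, -1.14 to -0.44 in Hsf1-/- mice and -2.69 to -1.84 in R6/2 mice. The R6/2 mice were below all other mice in this ratio, as they were for Tnni2, Mylpf, Mybpc2 and Actn3 against Tnnc2. For Atp2a1 against Tnnc2 the ranges overlapped, at 2.23 to 2.50 in wild type and 1.73 to 2.49 in R6/2 mice. Tnnt3, Casq1 and Pvalb against Tnnc2 also overlapped between R6/2 and the other mice. Tnnc2 was the member that fell least in these same mice, so ratios to it were bound to lean lower in R6/2 mice. The ratios that separate R6/2 mice therefore describe the set and are no separate test of unequal falls. How often ratios of other genes to Tnnc2 separate in this way was not computed.

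Per kilobase of the longest coding transcript, Atp2a1 was highest in wild type mice with a median of 15394 CPM per kb, followed by Tnnc2 (14724), Tnnt3 (14395), Mylpf (14276), Pvalb (12776) and Tnni2 (11296). The ranges of these neighbours overlapped, so the order among the 6 genes is not settled by 8 mice. Myl1 (4620) and Actn3 (3891) came next and overlapped with each other, while Mybpc2 (2229) and Casq1 (925.3) were each apart from their neighbours. In R6/2 mice Tnnc2 (6970) and Atp2a1 (6148) led with overlapping ranges, followed by Tnnt3 (3850), Mylpf (3705), Pvalb (3107) and Tnni2 (3012). At the foot of the R6/2 order were Actn3 (1189), Myl1 (1010), Mybpc2 (629.6) and Casq1 (215.3), each overlapping with its neighbour.

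R6/2 mice of one group also differed more from each other than wild type mice did. The within-group SD of log2 levels, pooled over 4 groups of 2 mice, was 0.24 (Atp2a1) to 0.60 (Casq1) in R6/2 mice and 0.07 to 0.15 in wild type mice for all members but Myl1. For Myl1 it was 0.39 in R6/2 and 0.43 in wild type mice. These differences in spread were not tested. The fit shares its estimate of the spread over all 12 groups, so SE and p-values of comparisons with R6/2 mice may be too small. In comparisons without R6/2 mice they may be too large for members other than Myl1, so that calls there may be missed. R6/2 HSP990 replicate 1 was the highest R6/2 mouse in 4 of 10 genes and R6/2 vehicle replicate 1 the lowest in 4.

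In Hsf1-/- mice none of the 10 genes was called different from wild type over the 4 treatments, where 7.61% of all genes tested were called in either direction. The log2 fold changes ran from -0.20 ± 0.09 (Tnnc2, SE, adjusted p = 0.18) to 0.22 ± 0.16 (Pvalb, adjusted p = 0.46), and 95% intervals of single genes reached from -0.40 to 0.57. One gene (Tnnc2) had an unadjusted p below 0.05 by edgeR and 1 by DESeq2. Within the control mice 0 of 10 were called, with background 1.93%, and within the vehicle mice 0 of 10, with background 0.0872%. Unadjusted p-values lay below 0.05 for 0 and 3 genes, by both tools. In vehicle mice all 10 values were above 0, from 0.09 (Tnnc2) to 0.64 (Myl1), with 95% intervals between -0.39 and 1.39. Age differed between Hsf1-/- and wild type mice in both experiments, as the Y-linked counts did in the HS experiment, and neither can be told apart from genotype. Pvalb lies 1.69 Mb from Hsf1 on chromosome 15.

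After HS none of the members was called in any genotype (edgeR, adjusted p of 0.58 or more), and none was by DESeq2. Called in either direction among all genes were 2.06% in wild type, 0.0436% in R6/2 and 0.00727% in Hsf1-/- mice. Wild type values ran from -0.07 (Pvalb) to 0.53 (Myl1), R6/2 values from -0.04 (Tnnt3) to 0.64 (Myl1) and Hsf1-/- values from -0.08 (Casq1) to 0.22 (Mybpc2). Myl1 had the highest value in wild type and R6/2 mice, at 4962 and 5036 CPM in WT control, 7311 and 7168 in WT HS, 770.3 and 1284 in R6/2 control and 1511 and 1687 in R6/2 HS mice. The adjusted p of Myl1 by edgeR were 0.62 and 0.67. At an unadjusted p below 0.05 there were 0, 2 and 0 members in the 3 genotypes. With 2 mice a group the 95% intervals of single genes reached 1.28 in wild type, 1.39 in R6/2 and 0.83 in Hsf1-/- mice. By library size only, 6 instead of 9 genes were above 0 in wild type and 6 instead of 8 in R6/2 mice. The R6/2 values also depended on single mice. Their median of 0.17 became -0.11 without R6/2 control replicate 1 and -0.12 without R6/2 HS replicate 2, with 4 of 10 genes above 0 in each, and 0.47 without R6/2 control replicate 2 and 0.38 without R6/2 HS replicate 1, with 10 of 10 above 0.

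After HSP990 none of the 10 genes was called either (edgeR, adjusted p of 0.31 or more, and DESeq2), where 1.85% of all genes were called in wild type, 1.43% in R6/2 and 0.218% in Hsf1-/- mice. Values were split around 0 in wild type mice, from -0.19 (Atp2a1) to 0.17 (Casq1). In R6/2 mice all 10 were above 0, from 0.20 (Atp2a1) to 0.88 (Pvalb, SE 0.32, adjusted p = 0.31), and in Hsf1-/- mice all 10 were below 0, from -0.52 (Mybpc2) to -0.22 (Tnni2). At an unadjusted p below 0.05 there were 0, 4 and 3 members in the 3 genotypes. These signs held by library size only, by RLE size factors and by DESeq2. The 10 values of a genotype come from the same mice, so equal signs are not independent. The Hsf1-/- vehicle mice are those whose 10 values all lay above wild type vehicle mice. The R6/2 vehicle mice had the lowest median against wild type of the 4 treatments (-2.07). In R6/2 mice the size of the values depended on the mouse. Pvalb was at 2006 and 3078 CPM in vehicle mice and at 6308 and 3048 in HSP990 mice, and Casq1 was at 332.4 and 410.0 and at 830.6 and 397.0. Without R6/2 HSP990 replicate 1 the median of the 10 values was 0.11 in place of 0.46, and 1 of them was below 0. Without replicate 2 the median was 0.71, with values up to 1.31.

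Whether the responses of R6/2 and wild type mice differed was tested as an interaction. None of the 10 genes was called for HS (background 0.0727%) or for HSP990 (background 0%), and 0 members had an unadjusted p below 0.05 in either test. The differences ran from -0.25 (Tnnt3) to 0.28 (Mybpc2) for HS and from 0.31 (Tnnc2) to 0.84 (Pvalb) for HSP990, and the 95% intervals of single genes reached from -1.04 to 1.18 and from -0.60 to 1.84. The deficit of control mice was not distinguishable from that of vehicle mice for any member either (background 0%, 0 members at an unadjusted p below 0.05). The difference between R6/2 and Hsf1-/- mice in response to HSP990 was not tested.

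**Figure D4:**
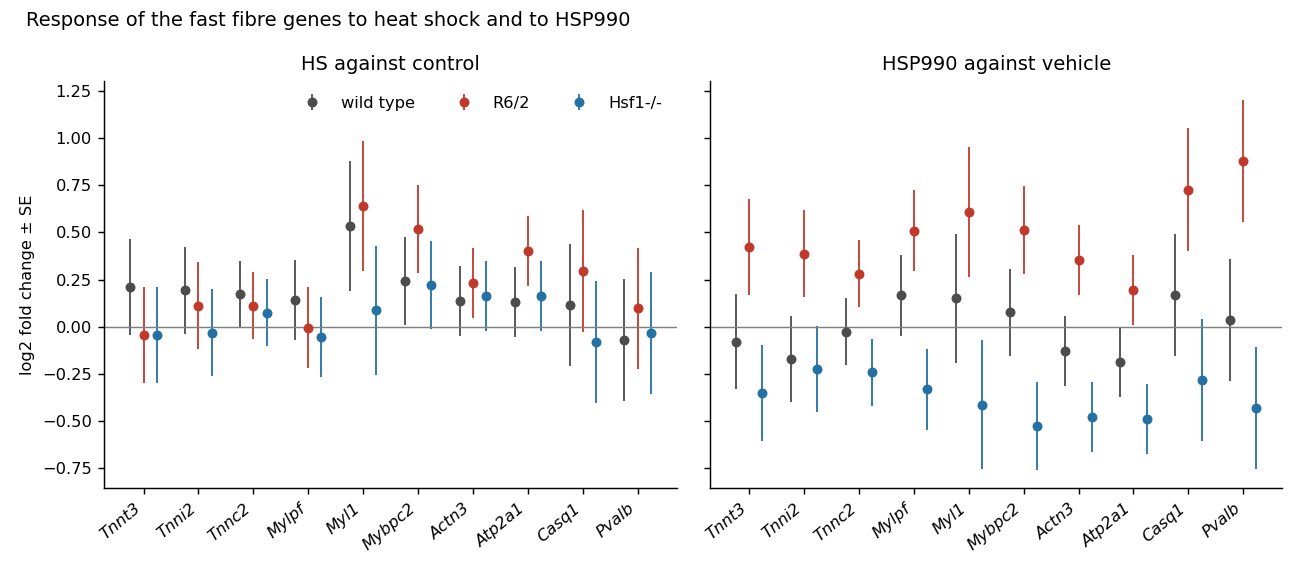
Log2 fold change with SE (y axis) of each fast fibre gene (x axis) for HS against control (left) and HSP990 against vehicle (right) in wild type, R6/2 and Hsf1-/- mice (colours). After HSP990 the R6/2 values lie above 0, up to 0.88 for Pvalb, and the Hsf1-/- values below 0, down to -0.52 for Mybpc2, and none of the values shown passed the test.

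For 9 of the members there is a partner gene for another form of the same protein, in most cases the slow or cardiac one. Actn2 and Mybpc1 were at means of 1495 and 2489 CPM in wild type mice, against 12.5 to 21.7 CPM for the slow troponins. In R6/2 mice 3 of the 9 partners were called lower, 1 higher and 5 neither, and their median was -0.50 on the log2 scale, where 19.8% of all genes were called lower and 21.1% higher. Called lower were the slow and cardiac light chains Myl3 (-1.93 ± 0.64, SE, adjusted p = 0.023) and Myl2 (-1.24 ± 0.47, adjusted p = 0.045) and slow myosin binding protein Mybpc1 (-0.50 ± 0.12, adjusted p = 0.0026). The R6/2 range of each overlapped with both other genotypes. Myl3 was at 1.75 to 52.7 CPM in R6/2, 30.5 to 146.8 in wild type and 1.10 to 141.4 in Hsf1-/- mice. Myl2 was at 1.92 to 36.8, 12.8 to 55.1 and 4.72 to 56.3 CPM. Casq2, the cardiac calsequestrin, was higher (1.20 ± 0.21, adjusted p = 0.00021), at 14.6 to 80.2 CPM in the other mice and 60.2 to 155.5 CPM in R6/2 mice, with overlap. By library size only 0 partners were called lower and 3 higher, Casq2, Atp2a2 and Actn2, so that only the rise of Casq2 was called on both scales. By library size 3.78% of all genes tested were called lower and 69.1% higher. Lower partner values were not particular to R6/2 mice. With TMM, Hsf1-/- against wild type had 0 partners called (7.61% of all genes), with 9 of 9 below 0 and a median of -0.68. R6/2 against Hsf1-/- mice had 0 called lower and 1 higher (22.1% and 23.7% of all genes), with a median of 0.04. R6/2 against wild type had 0 called lower within control (6.94% of all genes) and 0 within vehicle mice (10.5%).

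The slow troponins were at low levels in all genotypes and were not called, with Tnnt1 at -0.30 ± 0.43 (SE), Tnni1 at -0.98 ± 0.51 and Tnnc1 at -1.08 ± 0.54. SERCA2 (Atp2a2) was at 0.27 ± 0.17 and Actn2 at -0.10 ± 0.12. Within a library the log2 ratio of Casq1 to Casq2 counts was 4.37 to 5.93 in wild type, 4.80 to 6.98 in Hsf1-/- and 1.28 to 3.55 in R6/2 mice. R6/2 mice lay below all other mice in this ratio and in those of Actn3 to Actn2 and Mybpc2 to Mybpc1, and overlapped with them in the other 6. The members in these ratios already separated R6/2 mice from the others with TMM, so the ratios are no separate test. The share of all gene pairs that separate in this way was not computed. Casq1 stayed above Casq2 in every R6/2 mouse, and Mybpc2 was below Mybpc1 in some, at log2 ratios from -0.67 to 1.40.

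Of all genes tested, 19.8% were called lower in R6/2 mice and 21.1% higher. Of 17 other fast fibre genes tested, 15 were called lower in R6/2 mice, 1 higher and 1 neither, with a median of -1.40. The lower ones included the fast myosin heavy chain Myh4 (-1.86 ± 0.17, SE, adjusted p = 3.7e-07), tropomyosin Tpm1 (-1.94 ± 0.19, adjusted p = 9.1e-07), Ampd1, the muscle AMP deaminase (-1.90 ± 0.17, adjusted p = 2.4e-07), and the glycolytic enzymes Pgam2 (-1.87 ± 0.10) and Aldoa (-1.78 ± 0.09, both adjusted p = 2.2e-09). By library size only 14 were called lower and 3 higher, Myom2 turning from lower to higher. On that scale 3.78% of all genes tested were called lower and 69.1% higher. The gene called higher on both scales was Smtnl1 (1.08 ± 0.25, adjusted p = 0.0023), named after its value was seen. In Hsf1-/- mice 0 of the 17 genes were called by edgeR against wild type, where 7.61% of all genes tested were called.

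Of 19 sarcomere genes shared by fast and slow fibres, 14 were called lower and 1 higher in R6/2 mice, with a median of -0.82, where 19.8% of all genes were called lower and 21.1% higher. Skeletal actin Acta1 was at -2.35 ± 0.16 (SE, adjusted p = 1.4e-08), a lower value than that of any of the 10 members. Xirp2, a protein of actin bundles, was at -1.66 ± 0.13 (adjusted p = 7.9e-08), Tpm2 at -1.53 ± 0.14 (adjusted p = 2.5e-07), titin (Ttn) at -1.45 ± 0.12 (adjusted p = 8.8e-08) and Tcap at -1.37 ± 0.10 (adjusted p = 3.8e-08). Desmin (Des), the intermediate filament around the Z-disc, was at -0.07 ± 0.06 (adjusted p = 0.4). The gene called higher was Klhl41 (0.45 ± 0.11, adjusted p = 0.003). By library size only 10 were called lower and 4 higher, where 3.78% of all genes tested were called lower and 69.1% higher.

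Genes of excitation-contraction coupling and calcium handling outside the 10 were called lower in 17 of 22 cases and higher in 1, with a median of -0.59. Of all genes tested, 19.8% were called lower and 21.1% higher. Named by the rule were the triad protein Jph2 (-1.27 ± 0.11, SE, adjusted p = 2e-07), Sypl2 (-1.29 ± 0.13, adjusted p = 1e-06) and Camk2a (-0.95 ± 0.10, adjusted p = 9.5e-07). Sarcolipin (Sln), a small inhibitor of the SERCA pump, rose by 4.03 ± 0.62 (adjusted p = 6.5e-05), from a mean of 1.51 CPM in wild type to 23.0 CPM in R6/2 mice. The release channel Ryr1 was at -0.92 ± 0.08 (adjusted p = 1.9e-07) and its partner Cacna1s at -0.84 ± 0.06 (adjusted p = 4.2e-08). Scaled by library size only, 8 of these 22 genes were called lower and 9 higher, where 3.78% of all genes were called lower and 69.1% higher.

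Embryonic and regeneration forms of sarcomere proteins were called lower in 5 of 6 cases with TMM and in 3 of 6 by library size, and in none higher on either scale. Of all genes tested, 19.8% were called lower and 21.1% higher with TMM, and 3.78% and 69.1% by library size. Actc1, the cardiac actin of developing muscle, was at -2.49 ± 0.39 (SE, adjusted p = 7.9e-05), Myh8 at -1.80 ± 0.48 (adjusted p = 0.0064) and Myh3 at -1.61 ± 0.44 (adjusted p = 0.007). Myl4 (-0.59 ± 0.18, adjusted p = 0.012) and Mybph (-0.52 ± 0.17, adjusted p = 0.022) moved less.

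**Figure D5:**
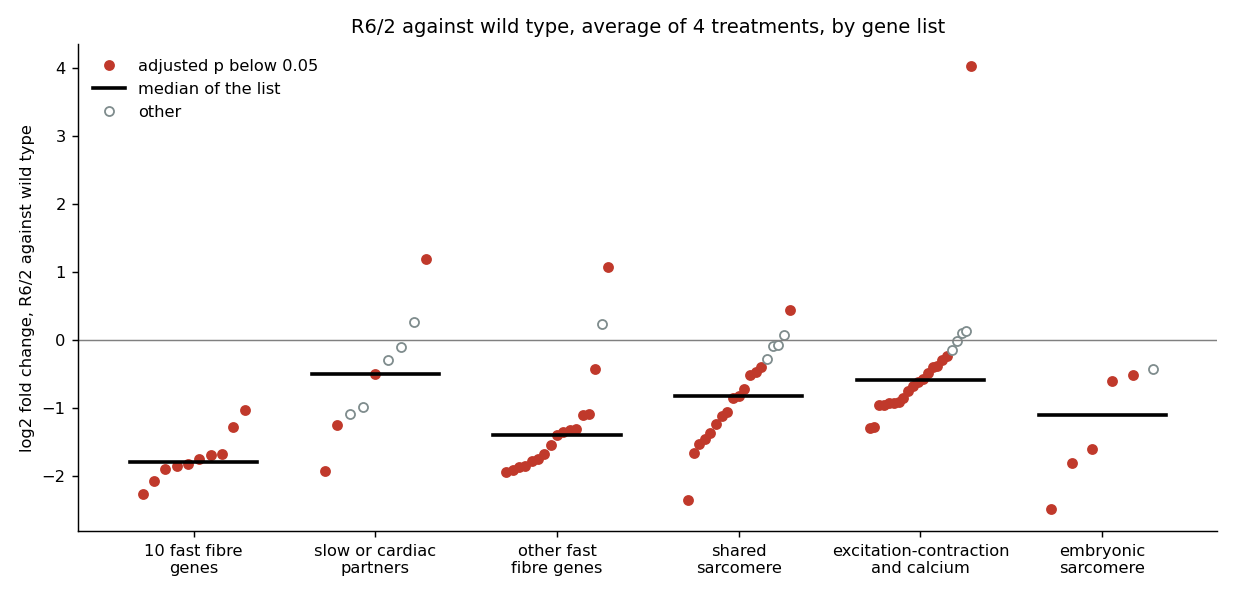
Log2 fold change of R6/2 against wild type over the 4 treatments (y axis) for every tested gene of each list (x axis), filled where the adjusted p was below 0.05, with a bar at the list's median. The 10 fast fibre genes have a median of -1.78, the other fast fibre genes -1.40 and the slow or cardiac partners -0.50.

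Markers of other cell types moved with the R6/2 genotype in part. With TMM 19.8% of all genes tested were called lower and 21.1% higher. Summed adipocyte markers (6 genes, all detected) were at 68.8 to 672.4 CPM in wild type and 56.9 to 149.4 CPM in R6/2 mice, and 5 of 6 were called lower, with Plin1 at -1.88 ± 0.51 (SE, adjusted p = 0.0068) and Cidec at -1.69 ± 0.45 (adjusted p = 0.0064). Both erythroid markers tested were called lower, Hbb-b1 (-1.17 ± 0.43, adjusted p = 0.037) and Alas2 (-1.13 ± 0.38, adjusted p = 0.023), with sums of 2.30 to 23.0 and 2.77 to 11.5 CPM. Of 3 satellite cell markers Pax7 (0.69 ± 0.15, adjusted p = 0.0015) and Myf5 (0.62 ± 0.16, adjusted p = 0.005) were called higher, with sums of 29.4 to 39.3 and 34.0 to 61.2 CPM. Lum was the 1 of 5 fibroblast markers called, at 0.36 ± 0.12 (adjusted p = 0.022), and sums were 740.8 to 1236 and 711.6 to 1049 CPM. No marker was called among 7 macrophage and leukocyte genes (42.4 to 87.8 and 46.5 to 87.6 CPM), 5 endothelial, 3 Schwann cell, 3 smooth muscle or 3 cardiac genes tested with edgeR, and 1 endothelial gene was called lower by DESeq2. By library size only, where 69.1% of all genes were called higher and 3.78% lower, 5 of 7 macrophage and leukocyte, 4 of 5 endothelial, 4 of 5 fibroblast, 3 of 3 smooth muscle, 3 of 3 satellite cell and 1 of 3 Schwann cell genes were called higher. On that scale 2 of 6 adipocyte genes and 0 of 2 erythroid genes were called lower. The cardiac markers summed to 1.48 to 36.0 CPM over all mice, Nppa being at 0 in all wild type mice. The summed skeletal muscle markers, some of which are in the lists above, were at 207300 to 252411 CPM in wild type and 53123 to 100569 CPM in R6/2 mice, with 9 of 10 called lower. The part of these cell types in the deficit of the fast fibre genes was not tested.

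The 5 genes whose levels followed the mean of the 10 members most closely over the 24 mice were Pfkm (Pearson's r = 0.991), Pgam2 (0.991), Aldoa (0.990), Pgm1 (0.987) and Tmem38a (0.985), out of 7493 genes with a mean of at least 10 CPM. Pfkm, Pgam2, Aldoa and Pgm1 code for enzymes of glucose metabolism and Tmem38a for a channel of the sarcoplasmic reticulum. These values describe libraries that fall into 2 clusters, R6/2 and the others, and carry no test. Within the 8 R6/2 mice r was 0.890 to 0.991 and within the 16 others 0.281 (Pgm1) to 0.778 (Pfkm).

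The members are spread over the genome, but 5 of 10 are on chromosome 7 and 2 on chromosome 1. In the mm9 build Tnni2 (chromosome 7, 149627713 to 149630315) and Tnnt3 (149684741 to 149701914) are 54.4 kb apart, and Atp2a1 (133589372 to 133606622) and Mylpf (134355122 to 134357812) are 748.5 kb apart. Mybpc2 (51757088 to 51780039) is the fifth gene on chromosome 7. Myl1 (66970869 to 66991978) and Casq1 (174140025 to 174150026) are on chromosome 1, Tnnc2 (164602661 to 164605467) on 2, Pvalb (78021544 to 78036830) on 15 and Actn3 (4861223 to 4877909) on 19. Tnnc2, Atp2a1, Tnnt3 and Casq1 overlap an annotated gene on the opposite strand, and for 2 of these the partner was in the table, Ube2c at 0.0982 to 1.43 and Rabep2 at 3.03 to 27.4 CPM by library size, far below Tnnc2 and Atp2a1.

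Since the 10 genes fell together, the sequence before the start of the members was searched for motifs known from muscle and heat shock promoters. RefSeq promoters (build GRCm38.p6) were at hand for 7 of 10 members. Shown are the 250 bases before the start for the members with the largest deficits, Myl1 and Pvalb, and with the smallest, Tnnc2 and Atp2a1, 5′ to 3′ on the gene's strand, with every motif found in capitals. They lie at chr1:66945057-66945306 (Myl1), chr15:78206401-78206650 (Pvalb, the outer of 2 starts), chr2:164779735-164779984 (Tnnc2) and chr7:126463074-126463323 (Atp2a1), all on the minus strand.
Myl1: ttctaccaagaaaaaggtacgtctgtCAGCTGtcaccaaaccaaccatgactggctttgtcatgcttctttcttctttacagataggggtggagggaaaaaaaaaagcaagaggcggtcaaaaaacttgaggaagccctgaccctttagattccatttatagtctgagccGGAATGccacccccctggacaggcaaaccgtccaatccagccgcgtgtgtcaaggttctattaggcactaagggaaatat
Pvalb: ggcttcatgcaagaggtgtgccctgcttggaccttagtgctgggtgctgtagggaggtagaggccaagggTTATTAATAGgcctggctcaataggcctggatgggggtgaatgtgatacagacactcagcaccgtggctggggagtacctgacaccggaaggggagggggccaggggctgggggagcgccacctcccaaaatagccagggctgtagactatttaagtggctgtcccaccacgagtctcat
Tnnc2: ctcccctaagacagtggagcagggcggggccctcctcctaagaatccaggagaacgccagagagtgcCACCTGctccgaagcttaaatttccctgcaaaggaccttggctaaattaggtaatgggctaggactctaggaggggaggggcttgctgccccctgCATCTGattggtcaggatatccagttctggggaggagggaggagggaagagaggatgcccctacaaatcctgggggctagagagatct
Atp2a1: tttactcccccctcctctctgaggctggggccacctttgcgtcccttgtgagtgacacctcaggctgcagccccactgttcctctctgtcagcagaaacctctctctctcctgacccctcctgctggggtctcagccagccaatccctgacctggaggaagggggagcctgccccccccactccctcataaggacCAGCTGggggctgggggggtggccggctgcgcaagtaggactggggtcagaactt

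The E-box (CANNTG), the letters bound by MyoD and its relatives, was found in 6 of the 7 members, among them Myl1, Tnnc2 (2 matches) and Atp2a1, and in 66.2% of all 32851 RefSeq windows of this length. Pvalb had none before the outer start and 1 match before its inner start, which is not shown. The capitals of Pvalb are a match to the MEF2 element, 180 to 171 bases before the start, which was in 1 of 7 members and 2.92% of all windows. The second capitals of Myl1 are an MCAT motif (CATTCC, here on the other strand), in 2 of 7 members (Myl1 and Mybpc2) and 12.6% of all windows. The CArG box was in 0 of 7 members and 1.47% of all windows. A 3-unit heat shock element, the sequence HSF1 binds, searched in its strict form and given by name alone, was in 0 of 7 and in 0.466% of all windows. Both strands were searched, and no motifs overlapped. These letters describe the windows shown and do not show binding, and the genes with the largest and the smallest deficit both had an E-box.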

How the data were processed

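The authors made strand-specific paired-end libraries from polyA RNA with 40-base reads, aligned these by Bowtie (build mm9), and deposited unnormalized counts per gene for 24 mice. The counting program, its strand setting and tool versions are not given in the sources used here. Per the submitters' processing notes, DESeq2 was also used. Gene numbers were matched to symbols with a RefSeq table (GRCm38.p6, 18594 of 18669 matched), and coordinates come from an mm9 annotation.

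The study's filter was used: 10 or more libraries had to hold 2 or more counts of a gene, which left 13754 genes. The counts were fitted as 12 groups with edgeR 4.0.16 (TMM, quasi-likelihood tests, 12 residual degrees of freedom, limma 3.58.1, R 4.3.3) over 18 contrasts. Adjusted p-values are Benjamini-Hochberg over all genes tested, with a threshold of 0.05. The 95% intervals use the standard error and 12 degrees of freedom. The fit was run on simulated counts with genes changed equally up and down and the same spread in all genotypes. They lacked the wider R6/2 spread and the lower R6/2 share of the most abundant genes. The simulation therefore does not test the scaling or the error rates of these data. Levels correlated between genes were log2 of CPM plus 0.5. The labels do not say that the 2 mice of a group came from separate litters. The p-values set each difference against the spread between these mice. That spread was estimated over all 12 groups together, and each gene's value was drawn toward the trend over all genes. The SE was derived from the log2 fold change and the F statistic of this test, so intervals and p-values need not match exactly. The alternatives are given in the closing section.

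The members and the gene lists were chosen with earlier results of these data known. Named are all 10 members and slow partners, up to 5 called genes of each other list with the largest change and a mean of at least 1 CPM, and the 5 genes most like the members. Ryr1, Cacna1s, Des, Klhl41 and Smtnl1 were named outside this rule after their values were seen. A gene that the rule names is not reported here.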

Additional observations from a re-analysis of the deposited data

How the results depend on the processing

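Each count of members called was recomputed under 8 alternatives (RLE size factors, library size only, TMM without the 20 most abundant genes, no filter, filterByExpr, DESeq2, a replicate block, only the groups compared) and without each of the 24 mice in turn. The 10 calls of R6/2 against wild type over the 4 treatments, within HS and within vehicle mice, and against Hsf1-/- mice remained 10 in all of these, and no direction of a member turned in R6/2 against wild type. When only the groups compared were fitted, 6 of 10 genes were called in HSP990 mice in place of 10, 9 in control mice in place of 10, 1 (Tnnc2, lower) in Hsf1-/- against wild type in place of 0 and 1 (Myl1, higher) in wild type HS mice in place of 0. In those fits fewer mice estimate the spread, and the fits of Hsf1-/- against wild type and of wild type HS hold no R6/2 mice. By library size only 9 were called in HSP990 mice. Without single mice the number called ranged from 7 to 10 in HSP990 mice, 7 being without R6/2 HSP990 replicate 2, and from 8 to 10 in control mice, 8 being without R6/2 control replicate 1. It stayed at 0 in every comparison where the fit called 0. Where a group was left with 1 mouse, that mouse was assumed to vary like the others.

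Replicate numbers are shared by the groups, but nothing in the labels pairs the mice. Deviations of same-numbered mice correlated at -0.296 to 0.315 over 18 pairs of groups, above 0.1 in 4 and below -0.1 in 5. With the replicate block 10 genes were called in each comparison of R6/2 with wild type or Hsf1-/- mice and 0 in the others. No member had fewer than 14039 counts in a library, so the number of mice, 2 a group, limits the precision more than depth.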
